A study of Mus musculus with 860 samples.

Results

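Cpa3, Hdc, Slc45a3, Csf2rb and Rab44 were followed through single cells of the mouse aorta-gonad-mesonephros region (AGM), the embryonic site where blood stem cells first arise from vessel wall. They are 5 of the 46078 genes in the deposited count table. They were chosen by name because reads of each of them had been seen to gather in 1 group of cells of these data, so their levels by cluster and by population are descriptions and no test is attached to them. The cells came from Gfi1:tomato reporter embryos on a CD1 background, in which a red fluorescent protein is read out from the Gfi1 locus, and every group carried this reporter. Index sorting, which stores the antibody signals of each sorted cell, gave intra-aortic haematopoietic cluster cells (IAHC, CD31+cKIT+), either GFI1+ or GFI1-, and haemogenic endothelium (HE, CD31+cKIT-GFI1+). Of 860 sequenced cells, the authors' filter kept 775. GFI1+ IAHC made up 30.97% of the kept cells at E11.5 and 14.97% at E10.5, GFI1- IAHC 17.4% at E11.5 and 3 cells at E10.5, and GFI1+ HE 22.2% at E11.5 and 14.1% at E10.5.

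Mast cells and basophils are myeloid cells that store histamine and proteases in granules and release them when a stimulus arrives. Their precursors depend on the transcription factor GATA2 and on cytokine signals such as stem cell factor and interleukin-3, and yolk sac and AGM haematopoiesis both contribute to the first mast cells of the mouse. Cpa3 encodes carboxypeptidase A3, a protease of the mast cell granule. Hdc encodes histidine decarboxylase, the enzyme that makes histamine. Slc45a3 encodes prostein, a solute carrier of the cell membrane. Csf2rb encodes the beta chain shared by the receptors for interleukin-3, interleukin-5 and GM-CSF. Rab44 encodes a large Rab GTPase that acts in granule exocytosis of mouse mast cells.

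In the GENCODE M21 annotation of GRCm38 (mm10), Cpa3 lies at chr3:20215620-20242181 on the minus strand and Hdc at chr2:126593667-126619299 on the minus strand. Slc45a3 lies at chr1:131962967-131982969, Csf2rb at chr15:78325752-78353847 and Rab44 at chr17:29114145-29148980, all on the plus strand. Csf2rb has a near copy, Csf2rb2, which codes for an interleukin-3 receptor beta chain of the mouse and starts on the other strand 20031 bp away, so reads of these genes may have been split or lost in counting.

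The bases upstream of the start sites of Cpa3 and Hdc are shown because these genes were found together in the same cells and both upstream windows hold a GATA word. RefSeq start sites on GRCm38.p6 were found for 3 of the 5 genes. The RefSeq start of Hdc differs from its GENCODE M21 start, and the window before it lies inside the gene as placed above. Capitals mark a match, on either strand, to the word AGATAA, to its variants that start with T (TGATAA) or end with G (AGATAG), or to the variant with both changes (TGATAG), within the 250 bases before the start, read 5′ to 3′ in the direction of the gene.
Cpa3 (chr3:20242182-20242431, minus strand): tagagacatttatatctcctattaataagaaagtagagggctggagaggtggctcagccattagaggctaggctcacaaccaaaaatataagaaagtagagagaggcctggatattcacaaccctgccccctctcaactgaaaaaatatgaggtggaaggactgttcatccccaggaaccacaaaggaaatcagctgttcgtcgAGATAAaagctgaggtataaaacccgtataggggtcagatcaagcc
Hdc (chr2:126618679-126618928, minus strand): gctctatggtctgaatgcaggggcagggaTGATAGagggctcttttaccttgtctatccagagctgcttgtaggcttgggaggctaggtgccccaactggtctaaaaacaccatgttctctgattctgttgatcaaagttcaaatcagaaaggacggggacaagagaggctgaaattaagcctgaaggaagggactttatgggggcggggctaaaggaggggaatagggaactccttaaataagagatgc
The Cpa3 match, AGATAA, lay between positions -46 and -41 from the start, and the Hdc match, TGATAG, between -221 and -216. Of the 2 RefSeq starts of Slc45a3, 1 had a match, TTATCA on the opposite reading strand, between -227 and -222. The window before that start also lies inside the gene as placed above. Such a word was present in 8718 of all 32851 upstream windows (26.5%), so a match is common and describes the letters only.

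Cells were sequenced by Smart-Seq2, which covers whole transcripts and carries no molecular identifiers, in 4 batches named GL53, GL58, GL69 and GL78. Kept cells held 134284 to 2296823 read counts, with a median of 727732. The labels name no animal, so each combination of population and stage is 1 sample of summed cells, and values were compared within batches without any test over cells. Batches need not be separate sorts or embryo pools, and none of the 15 plates named in the titles held both stages, so stage and plate cannot be told apart. Levels are summed read counts of a gene scaled to a common library total (CPM, the usual unit of such data), with exact Poisson 95% intervals, and shares of cells carry exact Clopper-Pearson 95% intervals, which cover counting error only, since reads made by PCR are not independent molecules. Where no cell of a set had reads, the share that such a count allows is taken as 3 cells of the set. Levels in CPM are not divided by gene length and are compared here between cells and not between genes. Clusters are those of the authors' deposited Louvain annotation, in which these 5 genes could take part, so a cluster set against the rest is a description. In these summed cells, fewer cells with a transcript and less transcript per cell cannot be told apart from a CPM alone, and cell counts are therefore given beside it.

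Reads of Cpa3 and Rab44 were almost confined to cluster 2, a group of 14.1% of the 775 kept cells. Cpa3 had reads in 26 cluster 2 cells (23.9%, 16.2 to 32.97) and was without reads in the other 83, and it had reads in 1 of the 666 other cells, where a single read was counted. Its level was 236.8 CPM (233.4 to 240.2) in cluster 2, against 0.00200 CPM (5.05e-05 to 0.0111) in the other clusters. Among the 26 cells the level ran from 8.53 to 9096 CPM with a median of 331.3 CPM, and 1 cell gave 37% of all Cpa3 reads of the cluster. The gene was therefore undetected in most cells of its own cluster and spread widely over the rest. Rab44 had reads in 33 cluster 2 cells (30.3%, 21.8 to 39.8) at 94.8 CPM (92.7 to 96.99), and in 0 of the 666 other cells, which allows a share of up to 0.450%. Its level in the 33 cells ran from 2.27 to 3103 CPM with a median of 257.4 CPM.

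Hdc had reads in 25 cluster 2 cells (22.9%, 15.4 to 31.97) and in 24 of the 666 other cells (3.60%), so detection alone did not separate the clusters as it did for Cpa3. The level did. It was 532 CPM (527 to 537) in cluster 2, against 1.88 CPM (1.76 to 2.00) in the other clusters, and a single cell held 31.3% of the reads of cluster 2. At 1000 CPM or more, Hdc was found in 11 cells, all of them in cluster 2 and all of them with Cpa3 reads. At 100 CPM or more it was found in 17 cluster 2 cells, of which 16 had Cpa3 reads, and in 3 other cells, the highest at 522 CPM. The 24 cells outside cluster 2 had a median of 29.6 CPM, and 8 of them were E11.5 GFI1+ IAHC of cluster 0.

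Slc45a3 and Csf2rb were each also frequent in another cluster, and not in the same one. Slc45a3 had reads in 11 cluster 2 cells (10.1%, 5.15 to 17.3) at 51.7 CPM (50.2 to 53.3), and in 18 of the 30 cells of cluster 7 (60%, 40.6 to 77.3) at 67.96 CPM (64.4 to 71.7). Cluster 7 had reads of the endothelial genes Cdh5, Cldn5 and Pecam1 in 30 of 30 cells and of Ptprc, which encodes the blood cell marker CD45, in 0 of 30. Levels of Slc45a3 per positive cell differed between these clusters, with medians of 641 CPM in cluster 2 and 86.8 CPM in cluster 7, and the highest cells reached 1298 CPM in cluster 2 and 285.01 CPM in cluster 7. None of the 30 cluster 7 cells had reads of Cpa3, Csf2rb or Rab44.

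Csf2rb was the most widely detected of the 5 genes, in 85 kept cells. It had reads in 39 cluster 2 cells (35.8%, 26.8 to 45.5) at 72.3 CPM (70.5 to 74.2), in 20 cells of cluster 0, in 14 of cluster 1, and in 9 of the 11 cells of cluster 10 (81.8%, 48.2 to 97.7) at 180.4 CPM (168.1 to 193.3). Cluster 10 had reads of C1qa, C1qb, C1qc and Csf1r, genes of macrophages, in 11 of 11 cells, and none of Cpa3, Hdc, Slc45a3 or Rab44. The near copy Csf2rb2 followed the same clusters, with reads in 20 cluster 2 cells at 8.03 CPM (7.42 to 8.68) and in 4 of 11 cluster 10 cells at 24.99 CPM (20.6 to 30.1). Other annotated genes that overlap the 5 genes carried few reads. Mir7007, inside Cpa3, had 59 reads in 6 cluster 2 cells, and Rpl35a-ps3, on the opposite strand inside Rab44, had 0.864 CPM in cluster 2, against 1.03 CPM elsewhere.

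**Figure D1:**
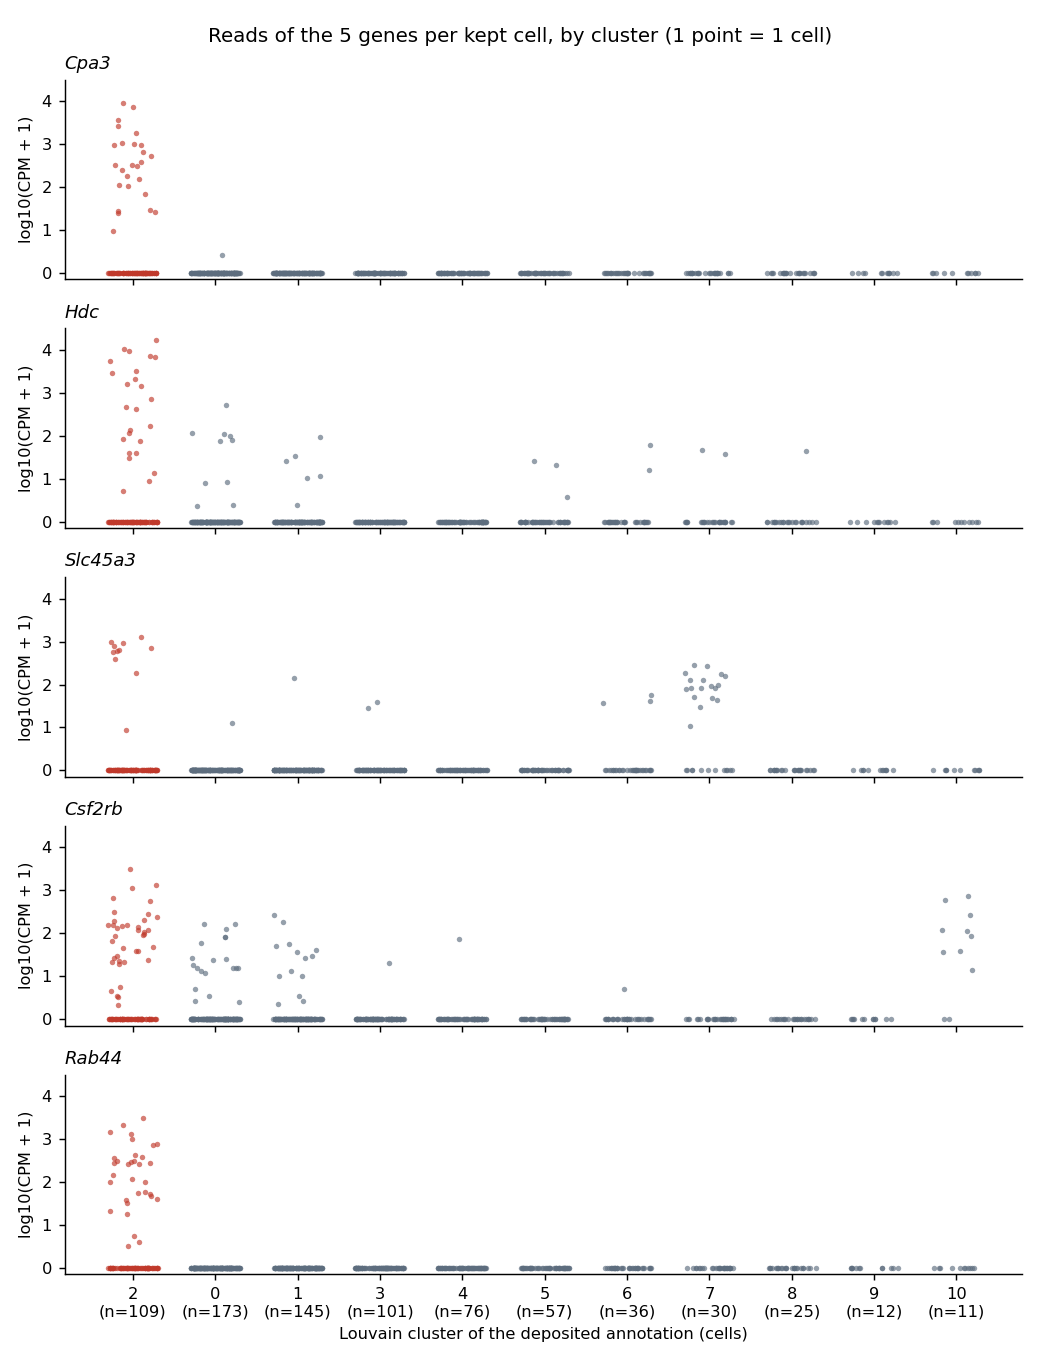
Level of the 5 genes in each of the 775 kept cells, by the authors' Louvain cluster, on a log scale of CPM. Cpa3 and Rab44 points stand almost only in cluster 2, while Slc45a3 also fills cluster 7 (18 of 30 cells) and Csf2rb cluster 10 (9 of 11 cells).

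Within cluster 2 the 5 genes were often found in the same cells. Of its cells, 59 had reads of none of the 5 genes, 17 of 1, 8 of 2, 7 of 3, 10 of 4 and 8 of all 5. In the 666 other cells, 571 had none, 94 had 1 and a single cell had 2. The 18 cells with 4 or 5 of the genes were 10 GFI1+ IAHC, 2 GFI1- IAHC and 3 GFI1+ HE of E11.5 and 3 GFI1+ IAHC of E10.5, and all 4 batches contributed, GL78 with 11, GL53 with 5, and GL58 and GL69 with 1 each.

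In cluster 2 the cells with the other 4 genes overlapped those with Cpa3, and only those with Slc45a3 lay wholly among them. Hdc had reads in 19 of the 26 cluster 2 cells with Cpa3 (73.1%, 52.2 to 88.4), against 6 of the 83 cells without it (7.23%, 2.699 to 15.1). Rab44 had reads in 23 of the 26 cells with Cpa3 (88.5%, 69.8 to 97.6), against 10 of the 83 without (12.05%, 5.93 to 21.04). All 11 cluster 2 cells with Slc45a3 also had Cpa3 and Rab44, 10 of them had Hdc and 9 had Csf2rb, so that Slc45a3 was nested in Cpa3 and in Rab44 alike. Csf2rb was the loosest, with reads in 19 of the 26 cells with Cpa3 (73.1%) and in 20 of the 83 without (24.1%, 15.4 to 34.7). In the batches with 6 or more cells with Cpa3, the Hdc pattern was the same way. In GL53, Hdc had reads in 5 of 6 cells with Cpa3, against 3 of 22 without, and in GL78 in 12 of 17 with Cpa3, against 1 of 51 without. In GL69 it had reads in 1 of 2 with Cpa3, against 1 of 4 without, and in GL58 in 1 of 1, against 1 of 6. Slc45a3 had no reads in cluster 2 of GL58 or GL69, so its place in the set rests on 2 cells of GL53 and 9 of GL78.

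Levels moved together as well. Over the cells of cluster 2, the Pearson correlation of log2(CPM + 1) was 0.81 between Cpa3 and Hdc, 0.80 between Cpa3 and Rab44, 0.63 between Cpa3 and Slc45a3 and 0.55 between Cpa3 and Csf2rb. Over all 775 kept cells, the genes most like Cpa3, among those with reads in at least 20 cells, were Rab44 (r = 0.84), Hdc (0.75), Arhgap15 (0.72), Il1rl1 (0.71), Slc22a3 (0.70), Tespa1 (0.67), Ctse (0.67), Gpr141 (0.66), Fgl2 (0.65) and Cd244a (0.64). Il1rl1 encodes ST2, the interleukin-33 receptor of mast cells and basophils. For Hdc the 10 genes were Cpa3 (0.75), Rab44 (0.73), Il1rl1 (0.64), Slc22a3 (0.61), Arhgap15 (0.60), Gpr141 (0.57), Tespa1 (0.56), Ctse (0.55), Cd69 (0.54) and Fgl2 (0.54). These coefficients are descriptions over cells that share batches and depth, and zeros shared by most cells enter them.

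**Figure D2:**
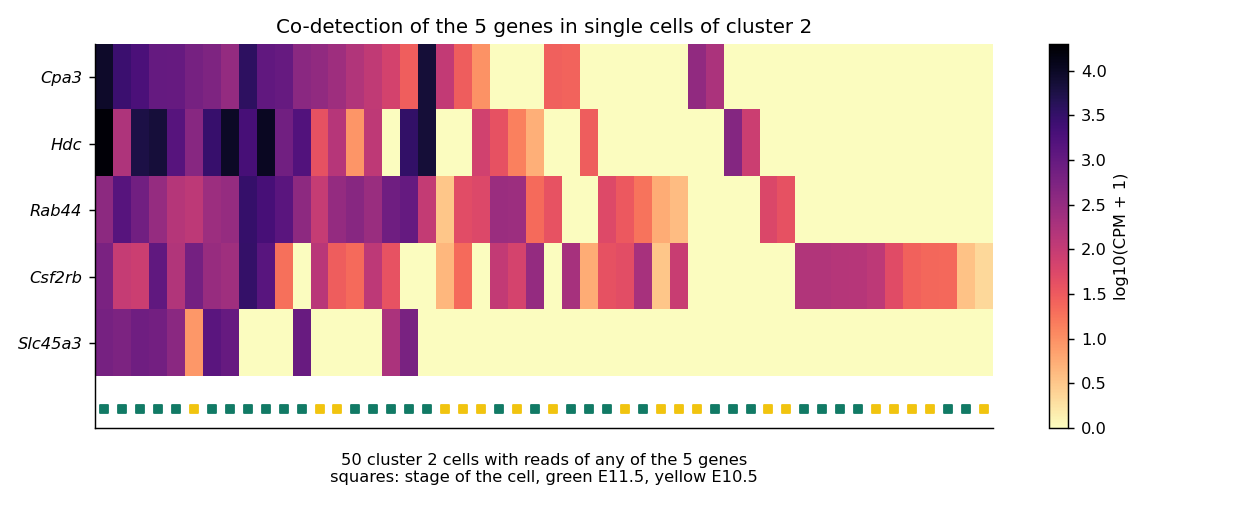
Level of the 5 genes, on a log scale of CPM, in each cluster 2 cell that had reads of any of them, with the stage of each cell marked. All 11 cells with Slc45a3 also had reads of Cpa3 and Rab44.

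The label of these genes as mast cell and basophil genes was then set against 11 defining markers of these cells, Cpa3 and Hdc included. The other 9 had reads in few of the cells with Cpa3, except Il1rl1. In the 26 cells, Mcpt4 and Tpsab1, granule proteases of mature mast cells, had no reads, which allows a share of up to 11.54%. Cma1 had reads in 2 cells (13.5 CPM), Tpsb2 in 1 (23.5 CPM), Prss34 in 2 (6.13 CPM) and Mcpt8, a basophil protease, in 1 (15.7 CPM), and none of these 4 had reads in the 83 cluster 2 cells without Cpa3. Of the high-affinity IgE receptor, the alpha chain Fcer1a had reads in 1 cell and the beta chain Ms4a2 in 3 (20.4 CPM, against none without Cpa3), while Fcer1g, the gamma chain that many myeloid cells share, had reads in 26 of 26. Il1rl1 had reads in 15 of 26. Mcpt1, Mcpt2, Mcpt9, Tpsg1 and Mrgprb2 had no reads in any of the 775 kept cells. The cells are accordingly called here by the gene that groups them and not by a cell type.

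To see which other genes went with Cpa3, the 26 cluster 2 cells with its reads were set beside the 83 without, a split made on a measured gene that describes these cells and tests nothing. Cells with Cpa3 had a median depth of 617960 counts, against 727652 in cells without, and a median of 6270 detected genes, against 7870 without. The sets also differed in stage. The GL53 cells were all E11.5, 6 with Cpa3 and 22 without, while GL78 held 11 E11.5 and 6 E10.5 cells with Cpa3, against 12 E11.5 and 39 E10.5 cells without. Counts from E11.5 cells alone, chosen after these values were seen, are therefore given below for some lists and at the end for others. Higher and lower stand here for a difference of 2-fold or more, on log2(CPM + 1), in GL53 and in GL78 alike, among genes with at least 5 CPM in the higher of the sets. Of 11517 genes examined, 643 (5.58%) were higher in cells with Cpa3 and 1384 (12%) were lower. The median log2 ratio of all of them was -0.13. In E11.5 cells alone, 6.73% of 11835 genes were higher and 13.2% lower.

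Among 34 genes for mast cell and basophil effector functions, 28 had reads in kept cells and 22 could be examined. Of these, 12 were higher in cells with Cpa3 and 0 lower, with a median log2 ratio of 2.72. In all, 24 of the 34 had reads in cells with Cpa3 and 15 in cells without. A gene read only in cells with Cpa3 could not come out lower. The 0 lower and the median are thus partly set by the 5 CPM limit. Of the 8 defining markers that could be examined, Cpa3 itself, Hdc, Ms4a2, Prss34 and Il1rl1 were higher and 0 lower, with a median of 4.52. Cpa3 was higher by the split itself, and Hdc was among the genes chosen because their reads gather in these cells. Both enter this count and median. The 12 effector genes were Prss34, Ms4a2, Fcer1g, Il1rl1, Cd200r3, Gzmb, Srgn, Cyp11a1, Adora3, Alox5, Cd63 and Lat2. Prss34, Ms4a2, Cd200r3, Gzmb and Cyp11a1 had reads in 1 cell with Cpa3 in GL53. Where reads in 2 or more such cells were required in each batch, 7 of the 12 were left, against 4.19% of all genes. Of the 5 markers 3 were then left, Cpa3, Hdc and Il1rl1. Srgn, the core protein of granule proteoglycan, had 795 CPM (26 of 26 cells) with Cpa3, against 200.97 CPM without. Il1rl1 had 131.1 CPM (125.7 to 136.8) with Cpa3, against 0.947 CPM (0.723 to 1.22) without. Gzmb, a granule serine protease, had 71.6 CPM with Cpa3, in 5 cells, against no reads in the 83 cells without, which makes it at least 1511-fold higher. Adora3, an adenosine receptor, had 23.8 CPM (9 cells) with Cpa3, against 0.0631 CPM (1 cell) without.

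Of 14 transcription factors of the mast cell and basophil lineages, 6 were higher with Cpa3 and 0 lower, with a median log2 ratio of 1.11. The 6 were Gata1, Gata2, Mitf, Cebpa, Cebpb and Ikzf2. In GL53, Mitf had reads in 1 of 6 cells with Cpa3 and in 4 of 22 without. Where reads in 2 or more such cells were required in each batch, the 5 genes other than Mitf were left. Gata2 had 929 CPM (914 to 944) in cells with Cpa3, against 116.5 CPM (113.8 to 119.2) in cells without, with reads in 23 of 26 and 51 of 83 cells. Within GL53 it had 580 CPM with Cpa3, against 51.9 CPM without. In GL78 the direction depended on the stage. E11.5 cells had 2124 CPM with Cpa3, against 4.15 CPM without, while E10.5 cells had 65.4 CPM with Cpa3, against 186.2 CPM without. Gata1 had 98.1 CPM (16 of 26 cells) with Cpa3, against 6.99 CPM (4 of 83) without. Mitf, a master factor of mast cells, had reads in 8 cells of each set, at 13.9 CPM with Cpa3, against 2.34 CPM without. Spi1 and Runx1, myeloid and haematopoietic factors, were close between the sets, at 218.4 and 247.6 CPM with Cpa3, against 292.2 and 214.8 CPM without.

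Receptor genes of the interleukin-3, GM-CSF and stem cell factor family gave 3 higher (Csf2rb2, Csf2ra, Il5ra) and 1 lower (Csf1r) of 10, with a median of 0.57. Where reads in 2 or more such cells were required in each batch, 2 stayed higher, Csf2rb2 and Csf2ra. Csf2rb2 had 37.97 CPM (14 of 26 cells) with Cpa3, against 0.237 CPM (6 of 83) without. Kit, the receptor of stem cell factor, was present in nearly all cells of both sets and had 674 CPM with Cpa3, against 388 CPM without, though in the E10.5 cells of GL78 it had 208.1 CPM with Cpa3, against 400.9 CPM without. Of 11 genes for granule exocytosis by Rab GTPases, 10 could be examined and only Rab27b was higher, at 43.6 CPM with Cpa3, against 16.5 CPM without, and this too did not hold in the E10.5 cells of GL78, at 10.1 CPM with Cpa3, against 23.9 CPM without.

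Endothelial genes ran the other way. All 9 that could be examined were lower in cells with Cpa3, with a median log2 ratio of -4.73, but in E11.5 cells alone 4 of 9 were, Tek, Egfl7, Esam and Gja5. Cdh5 and Cldn5 had no reads in the 12 E11.5 cells without Cpa3 of GL78, and Pecam1 had 149.04 CPM with Cpa3, against 70.8 CPM without, in the E11.5 cells of that batch. Cdh5, which encodes VE-cadherin, had no reads in the 26 cells with Cpa3, against 177.2 CPM and 50 of 83 cells without, and Cldn5 had none with Cpa3, against 264.6 CPM and 38 cells without. Pecam1, which encodes the sorting antigen CD31, was present at 92.8 CPM in 18 of 26 cells with Cpa3, against 258.5 CPM in 69 of 83 without. Of 12 haematopoietic progenitor genes, Mecom, Hlf, Procr and Flt3 were lower and Ikzf1 and Cd48 higher, with a median of -0.57. In E11.5 cells alone the same 4 were lower and only Ikzf1 was higher. For Procr and Mecom this rested on few cells in GL78. Of the 12 E11.5 cells without Cpa3 there, 1 had Procr reads and 4 had Mecom reads, 91.7% of them in 1 cell. In GL53, 11 and 10 of the 22 cells without Cpa3 had reads of Procr and Mecom. Mecom, a stem cell factor gene, had no reads in the 26 cells with Cpa3, against 95.5 CPM in 54 of 83 cells without, and Procr, which encodes a surface receptor of stem cells, had 6.61 CPM with Cpa3, against 170.3 CPM without. Ptprc had reads in all 26 cells with Cpa3, at 329.3 CPM, against 151.7 CPM in cells without.

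Markers of other blood lineages were mixed. Of 6 neutrophil genes examined, the granule genes Mpo and Prtn3 were higher, Mpo at 1915 CPM with Cpa3, against 574 CPM without, and Prtn3 at 487 CPM with Cpa3, against 233.8 CPM without. In E11.5 cells alone neither was called. In those of GL78, Prtn3 had 10.05 CPM (1 of 11 cells) with Cpa3, against 115.5 CPM (5 of 12) without, and Mpo 473 CPM with Cpa3, against 403 CPM without. In the E10.5 cells of GL78, Prtn3 had 891 CPM with Cpa3, against 68.8 CPM without. Of 5 macrophage genes, Cx3cr1 and Adgre1 were higher and Csf1r lower, and 1 of 5 megakaryocyte genes, Gp1bb, was higher. Of 2 erythroid genes none was higher or lower, Lck was lower among 3 lymphoid genes, and the 1 mesenchymal gene examined, Pdgfrb, was higher. No germ cell or eosinophil gene reached the limit for examination. Summed over the 8 neutrophil markers, cells with Cpa3 ran from 0 to 8357 CPM with a median of 449 CPM, against 0 to 19040.3 CPM with a median of 131.2 CPM in cells without, and S100a8, S100a9 and Ngp had no reads in cells with Cpa3. Summed over the 8 macrophage markers, the median was 75.7 CPM (0 to 1404) with Cpa3, against 0 CPM (0 to 1849) without, and C1qa and Mrc1 had no reads in cells with Cpa3. The part of these lineages in the levels of the 5 genes was not tested.

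**Figure D3:**
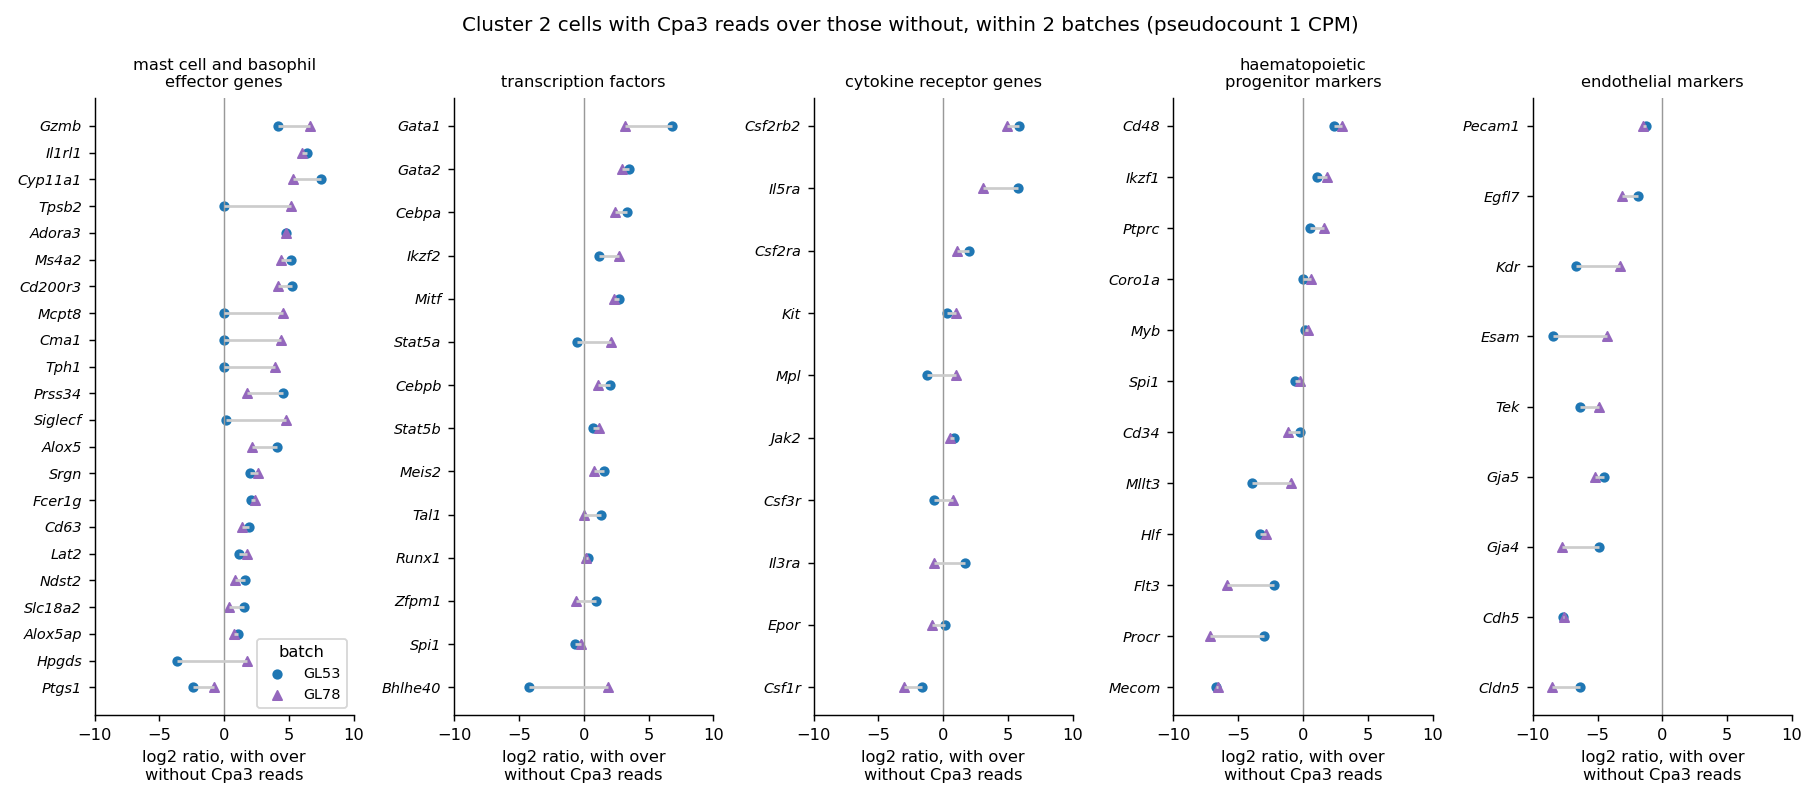
Log2 ratio of summed CPM, cluster 2 cells with Cpa3 over cells without, within GL53 and within GL78 with both stages together, for the genes of each list that could be examined. Mast cell effector genes and transcription factors lie mostly above 0 and all 9 endothelial genes below 0 in both batches.

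The sorting signals of the same cells differed within batches. CD45 fluorescence had a median of 20319 arbitrary units in the 6 cells with Cpa3 of GL53, against 7637 in the 21 without, and of 14343 in the 17 cells with Cpa3 of GL78, against 738 in the 51 without. CD31 fluorescence had a median of 5183 with Cpa3, against 8937 without, in GL53 and 5442 with Cpa3, against 18671 without, in GL78. Within single populations the CD45 difference was not uniform. Among E10.5 GFI1+ IAHC of GL78 the median was 6504 in 6 cells with Cpa3, against 693 in 30 without, and among E11.5 GFI1+ IAHC of GL53 it was 15821 in 5 with Cpa3, against 5781 in 17 without. Among E11.5 GFI1+ IAHC of GL78 it was 18742 in 7 cells with Cpa3, against 22439 in 8 without, with overlapping ranges. CD31 was lower with Cpa3 in each of these 3 sets, with medians of 6188, 4699 and 3846 in cells with Cpa3, against 23454, 22362 and 5988 in cells without, and the ranges overlapped in each. The cKIT signal had medians of 723 and 1042 with Cpa3, against 904 and 779 without, in GL53 and GL78, and so did not keep 1 direction.

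**Figure D4:**
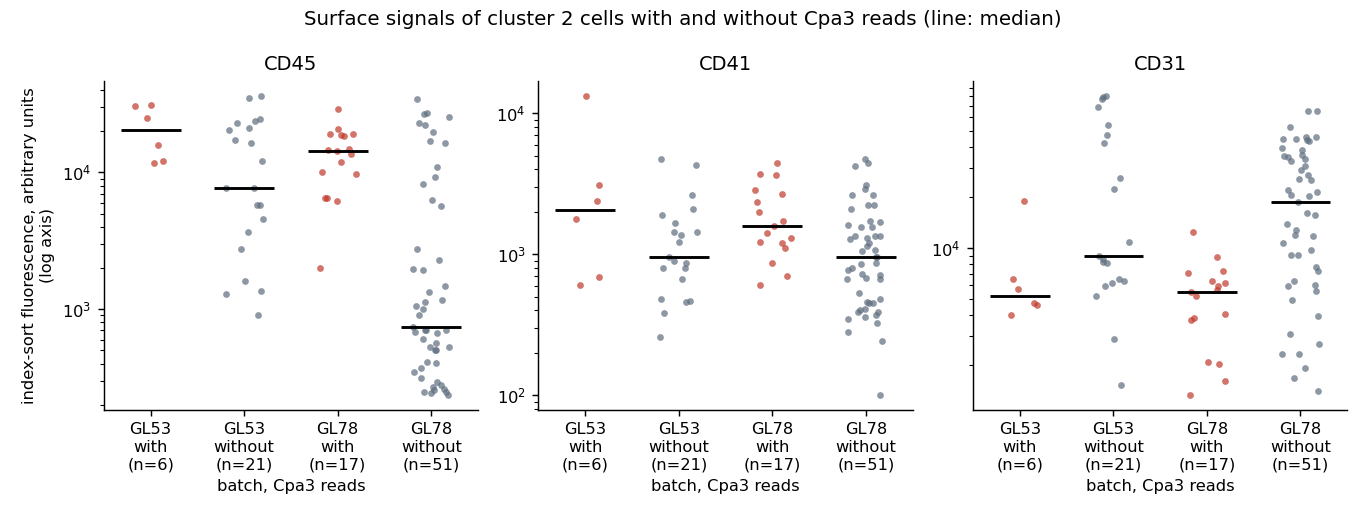
Index-sort fluorescence of cluster 2 cells with and without Cpa3 reads, in arbitrary units, within GL53 and GL78, 1 point per cell with the median. CD45 medians are higher and CD31 medians lower in cells with Cpa3 in both batches, and the points of the sets overlap.

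By population and stage, Cpa3 reached its highest levels in E11.5 GFI1+ IAHC. It had 95.2 CPM in GL53 (5 cells), 0 in GL58 (30 cells) and 109.9 CPM in GL78 (8 of 89 cells). A single cell held 90.3% of the GL53 reads and another 46.4% of the GL78 reads, and without them the levels were 9.35 CPM in GL53 and 59.4 CPM in GL78. E10.5 GFI1+ IAHC had 4.31 CPM in GL69 (2 of 29 cells) and 17.8 CPM in GL78 (6 of 87 cells). GFI1- IAHC at E11.5 had 0 in GL53 (0 of 91 cells) and 6.17 CPM in GL78 (3 of 44 cells). The levels of a group thus varied between batches by as much as between groups, and each rested on at most 8 cells. E11.5 GFI1+ HE had 6.27, 5.74 and 50.2 CPM in GL53, GL58 and GL78, each from 1 cell, and E10.5 GFI1+ HE had no reads in 18 cells of GL58 and 91 cells of GL78.

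Hdc was also highest in GFI1+ IAHC of GL53 and GL78 at E11.5. This population had 191.4 CPM in GL53, 0.0423 CPM in GL58 and 294.8 CPM in GL78, from 13, 1 and 11 cells. A single cell held 85.2% of the GL53 reads, and without it the level in GL53 was 28.5 CPM. The E11.5 GFI1+ HE cells of that batch had 0.101 CPM without their own top cell. E10.5 GFI1+ IAHC had 4.18 CPM in GL69 and 7.12 CPM in GL78, and E11.5 GFI1- IAHC had 1.92 CPM in GL53 and 51.6 CPM in GL78. In E11.5 GFI1+ HE it had 61.1, 2.60 and 31.7 CPM in GL53, GL58 and GL78, with 99.8%, 88.6% and 90.5% of the reads in 1 cell, and in E10.5 GFI1+ HE 2.96 CPM in GL58 and 0.0390 CPM in GL78. In GL58 both genes were thus at or near 0 in GFI1+ IAHC, the population in which they were highest in the other E11.5 batches. Over all populations, GL58 held only 5 E11.5 cells of cluster 2, against 28 in GL53 and 23 in GL78.

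**Figure D5:**
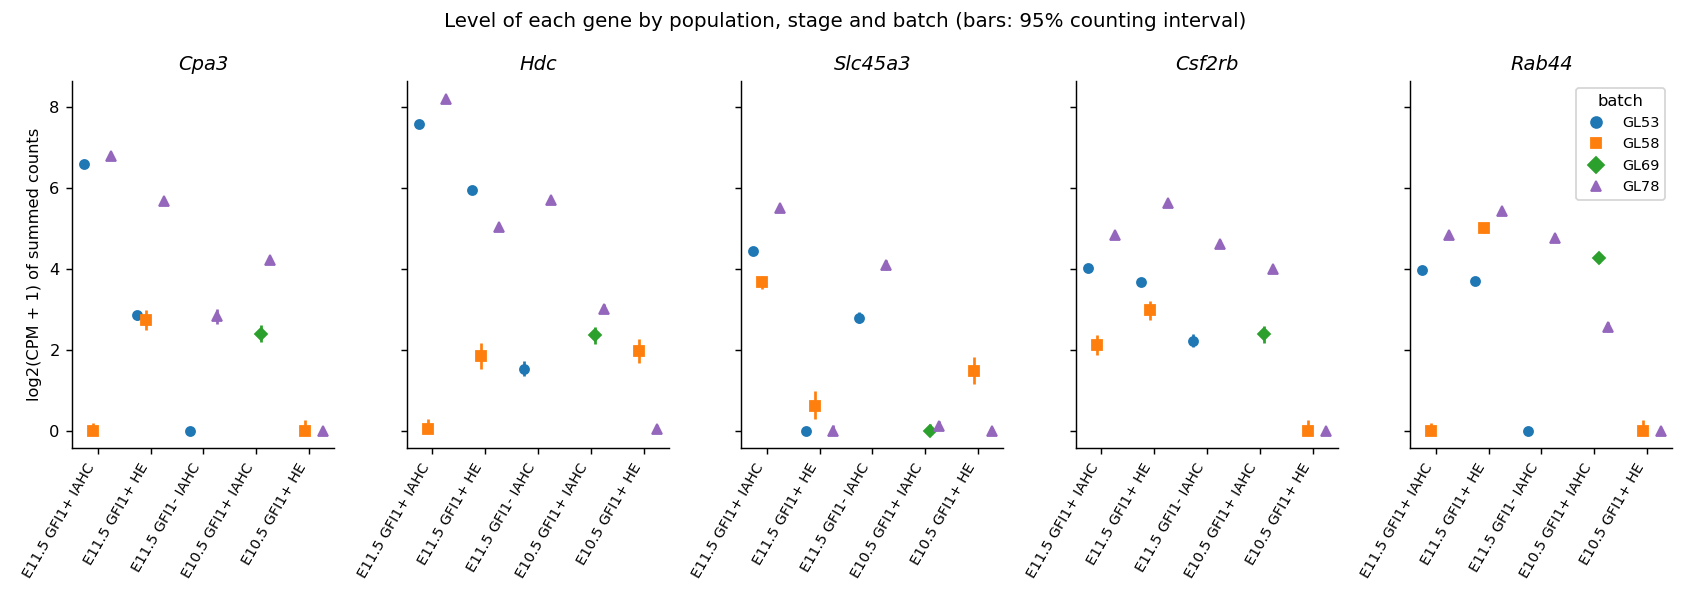
Summed CPM of the 5 genes in each population and stage, 1 point per batch with its exact Poisson 95% interval. Cpa3 and Hdc are highest in E11.5 GFI1+ IAHC of GL53 and GL78 and at or near 0 in the same population of GL58.

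At E11.5, GFI1+ IAHC were compared with GFI1+ HE in 3 batches. A gene was called when all batches showed a difference of 2-fold or more one way and the higher group reached at least 5 CPM. Of the 5 genes 1 was called higher, Slc45a3, and none lower, beside 1.45% of all genes called higher. Slc45a3 had 20.7 CPM in GFI1+ IAHC, against 0 in GFI1+ HE, in GL53 (at least 549-fold), 11.8 CPM in GFI1+ IAHC, against 0.532 CPM in GFI1+ HE, in GL58 (22.3-fold, 11.6 to 49.2), and 44.2 CPM in GFI1+ IAHC, against 0 in GFI1+ HE, in GL78 (at least 478-fold). Cluster 7, where Slc45a3 was most often detected, held 13 E11.5 GFI1+ IAHC and no HE cell, and without clusters 6 to 10 the call was lost. Cpa3 was 15.2-fold (13.9 to 16.7) higher in GFI1+ IAHC in GL53 and 2.19-fold (2.07 to 2.31) higher in GL78, but at least 45.2-fold lower in GL58, which gave a mean log2 ratio of 0.70 ± 3.26 (SD over 3 batches). These folds rested on few cells. All HE reads came from 1 cell in each batch, and without the top GFI1+ IAHC cell the fold was 1.49 (1.33 to 1.67) in GL53 and 1.18 (1.12 to 1.25) in GL78. Without GL58, 3 of the 5 genes were called higher. Csf2rb and Rab44 kept no direction, with mean log2 ratios of -0.43 ± 0.67 and -1.78 ± 2.84 (SD over 3 batches).

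At E10.5 the same populations shared only GL78. There 3 of the 3 genes that could be examined were called higher in GFI1+ IAHC, beside 2.85% of all genes. Cpa3 had 17.8 CPM in GFI1+ IAHC, against 0 in GFI1+ HE (at least 456-fold), Hdc had 7.12 CPM in GFI1+ IAHC, against 0.0390 CPM in GFI1+ HE (182.4-fold, 62.1 to 887), and Csf2rb had 14.9 CPM in GFI1+ IAHC, against 0 in GFI1+ HE (at least 382.2-fold). A single cell held 76.4% of the Hdc reads of these GFI1+ IAHC. Without it Hdc had 1.70 CPM, under the limit of 5 CPM, and its 3 reads in HE came from 1 cell. Without their top cells, Cpa3 had 9.69 CPM and Csf2rb 6.43 CPM in GFI1+ IAHC. Cluster 2 held 42 E10.5 GFI1+ IAHC (36.2% of them) and 11 E10.5 GFI1+ HE (10.1%). None of those 11 HE cells had reads of any of the 5 genes, which allows a share of up to 27.3%.

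GFI1+ were compared with GFI1- IAHC at E11.5 in GL53 and GL78. Cpa3, Hdc and Slc45a3 were called higher in GFI1+ IAHC, 3 of 5 genes, beside 0.736% of all genes. Over all batches, cluster 2 held 39 E11.5 GFI1+ IAHC (16.25% of them) and 10 E11.5 GFI1- IAHC (7.41%). Within cluster 2, Cpa3 had reads in 12 of the 39 and in 3 of the 10. Cpa3 was at least 1665-fold higher in GFI1+ IAHC in GL53 and 17.8-fold (15.3 to 20.8) higher in GL78, and Hdc was 99.4-fold (81.8 to 122.1) and 5.71-fold (5.42 to 6.03) higher. Without the top GFI1+ cell in GL53 these became at least 163.5-fold for Cpa3 and 14.8-fold for Hdc. Slc45a3 was 3.47-fold (3.07 to 3.92) and 2.72-fold (2.46 to 3.00) higher in the GFI1+ cells. Its detection ran the other way in GL53, with reads in 6 GFI1+ IAHC (4.96%), against 10 GFI1- IAHC (10.99%). In GL78, Slc45a3 had reads in 11 GFI1+ IAHC (12.4%), against 4 GFI1- IAHC (9.09%). The intervals of these shares overlapped in each batch. Csf2rb had 27.9 CPM in GFI1+ IAHC of GL78, against 23.6 CPM in GFI1- IAHC, and Rab44 27.8 CPM in GFI1+ IAHC, against 26.3 CPM in GFI1- IAHC, so neither met the limit in that batch.

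Between stages, GFI1+ IAHC shared only GL78, and 4 of 5 genes were called higher at E11.5 than at E10.5, beside 10.6% of all genes. Cpa3 was 6.18-fold (5.82 to 6.56), Hdc 41.4-fold (37.97 to 45.3), Slc45a3 463-fold (224.3 to 1152) and Rab44 5.63-fold (5.03 to 6.32) higher at E11.5. Slc45a3 had reads in 11 of 89 cells at E11.5, against 7 reads in 1 of 87 cells at E10.5. Over all batches, cluster 7 held 13 E11.5 GFI1+ IAHC, 10 of them with Slc45a3 reads, and 1 E10.5 GFI1+ IAHC. Without the top E11.5 cell, Cpa3 was 3.34-fold and Hdc 27.6-fold higher. Csf2rb was 1.87-fold (1.74 to 2.02) higher and missed the limit. In GFI1+ HE, which shared GL58 and GL78, Cpa3, Csf2rb and Rab44 were called higher at E11.5, 3 of the 4 genes examined, beside 3.03% of all genes. For Cpa3 this rested on 1 cell in each batch, and no gene was called once the top cell of each gene was left out.

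Both the number of cluster 2 cells with reads and the level were higher at E11.5 than at E10.5. Cpa3 had reads in 18 of 56 cells at E11.5 (32.1%, 20.3 to 45.96), against 8 of 53 at E10.5 (15.1%, 6.75 to 27.6), and its level was 498 CPM at E11.5, against 31.9 CPM at E10.5. Hdc had reads in 20 of 56 cells at E11.5 (35.7%, 23.4 to 49.6), against 5 of 53 at E10.5 (9.43%, 3.13 to 20.7), at 1194 CPM in E11.5 cells, against 12.8 CPM in E10.5 cells. Within GL78, the batch with most cells of both stages, Cpa3 had reads in 11 of 23 cells at E11.5, against 6 of 45 at E10.5, at 662 CPM in E11.5 cells, against 34.8 CPM in E10.5 cells. Hdc had reads there in 10 of 23 at E11.5, against 3 of 45 at E10.5. GL53 held E11.5 and GL69 E10.5 cells only, and 1 GL53 cell gave 40.03% of the E11.5 Cpa3 reads, without which the pooled level was 305.3 CPM. Over all batches, Slc45a3 had reads in 10 cells at E11.5, against 1 at E10.5, Csf2rb in 25 at E11.5, against 14 at E10.5, and Rab44 in 20 at E11.5, against 13 at E10.5. Within cluster 2, Cpa3 had reads in 12 of 39 GFI1+ IAHC, 3 of 10 GFI1- IAHC and 3 of 7 GFI1+ HE at E11.5, and in 8 of 42 GFI1+ IAHC and 0 of 11 GFI1+ HE at E10.5.

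The cells with Cpa3 were not alike at the 2 stages. In the 11 E11.5 and 6 E10.5 cluster 2 cells with Cpa3 of GL78, where the stages shared a batch, Cpa3 itself had 1503 CPM at E11.5, against 244.7 CPM at E10.5 (6.14-fold, 5.80 to 6.52), and Hdc 3528 CPM at E11.5, against 92.3 CPM at E10.5. Gata2 had 2124 CPM at E11.5, against 65.4 CPM at E10.5 (32.5-fold, 29.2 to 36.2), with reads in 10 of 11 and 6 of 6 cells. Kit had 1285 CPM at E11.5, against 208.1 CPM at E10.5, and Mitf had reads in 7 of 11 cells at E11.5, against 0 of 6 at E10.5. Neutrophil granule genes were the reverse in this batch. Prtn3, proteinase 3, had reads in 1 of 11 cells at E11.5, against 6 of 6 at E10.5, with a level of 10.05 CPM at E11.5, against 891 CPM at E10.5. Csf3r, the receptor of G-CSF, had reads in 0 of 11 at E11.5, against 6 of 6 at E10.5, and was at least 304.7-fold lower at E11.5. Mpo, myeloperoxidase, had reads in 4 of 11 cells at E11.5, against 6 of 6 at E10.5, with a level of 473 CPM at E11.5, against 2567 CPM at E10.5, and 1 cell held 89.6% of its E11.5 reads. The 6 cells with Cpa3 of GL53, all E11.5, did not follow this, with Mpo in 5 of 6 at 2395 CPM, Prtn3 in 5 of 6 at 469 CPM and Csf3r in 2 of 6 at 73.6 CPM. Gata1 did not follow Gata2, with 77.7 CPM at E11.5, against 144.7 CPM at E10.5. These examples were chosen after their values were seen.

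The authors' cell cycle calls placed 9 of the 11 E11.5 cells with Cpa3 of GL78 in G1, 0 in S and 2 in G2M, against 1, 4 and 1 of the 6 E10.5 cells. Cells without Cpa3 in the same cluster and batch were called G1 in 4 of 12 cells at E11.5 and in 20 of 39 at E10.5. Over all batches, 12 of 18 E11.5 cells with Cpa3 were called G1 (66.7%, 40.99 to 86.7), against 1 of 8 at E10.5 (12.5%, 0.316 to 52.7).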

How the data were processed

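Single cells of the AGM were index sorted and sequenced by Smart-Seq2 by the authors, who aligned reads to mm10 with STAR 2.7.3 and counted them per gene with HTSeq 0.9.1, per the submitters' processing notes, and analysed cells with Scanpy 1.4.4. The annotation release, strand setting and handling of reads shared by similar genes are not given in the sources used here. Raw read counts per gene were deposited by the authors and, in the cell table, index-sort intensity values in arbitrary fluorescence units (some below 0), clusters, cell cycle phases and their filter, under which 775 of 860 cells were kept (240 GFI1+ IAHC, 135 GFI1- IAHC and 172 GFI1+ HE at E11.5, and 116, 3 and 109 at E10.5). The deposited normalized table was not used, and all 860 columns of cells matched a label. Ensembl IDs were given symbols for 45143 of 46078 genes, and genes without a symbol held 0.0682% of counts. The 92 spike-in rows were left out.

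Counts were summed over the kept cells of a population, stage and batch and scaled to CPM. Groups were compared inside those batches that held 10 or more kept cells of each, as log2(CPM + 1) ratios averaged over batches, which understates changes of low genes. Genes under 5 CPM in the higher group were not examined. Folds against 0 reads were taken against a floor of 3 counts in the summed group and folds with reads on both sides are ratios of CPM with exact intervals. No test was run, since each group is 1 sample, and doublets were not called. Python 3.11.15, numpy 2.4.6, pandas 2.3.3, scipy 1.17.1 and matplotlib 3.10.9 were used, and the ratio script was tested on simulated counts.

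The genes and the 15 lists (148 genes) were chosen with earlier results of these data known. The genes named are the 5 members and Csf2rb2, the 10 genes with the highest correlation with Cpa3 and with Hdc, and, of the lists, genes of high and low level and defining markers. Alternatives were pseudocounts of 0.1 and 10 CPM, other scalings, thinning to 100000 counts per cell, other detection limits, all sequenced cells, pooled batches, and leaving out each batch, clusters 6 to 10 or the cell with most reads. After seeing the data, the split by Cpa3 reads was repeated in E11.5 cells alone and with reads required in 2 or more cells per batch, and levels by population were repeated without the cell with most reads.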

Additional observations from a re-analysis of the deposited data

Results flagged for a closer look

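The 85 cells left out by the authors' filter enter no comparison above, yet they held reads of all 5 genes at shares above the 3.53% that a count of 0 allows, except for Cpa3, which was at that limit. Csf2rb had reads in 28 of the 85 cells (32.9%, exact interval 23.1 to 43.98), against 10.97% of kept cells, and 23 of the 28 were among the 46 left-out E11.5 GFI1- IAHC. Of the 28 cells with Csf2rb, C1qb, C1qc and Csf1r each had reads in 25 and C1qa in 24, against 19, 19, 20 and 16 of the 57 left-out cells without it. Hdc had reads in 7.06%, Slc45a3 in 4.71% and Rab44 in 5.88% of the left-out cells, against 6.32%, 4.65% and 4.26% of kept cells.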

How the results depend on the processing

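Of the counts of genes called and of cells with reads over the alternatives, 81 stayed within 1.5 times their value, 7 were lower and 3 higher, and no called value changed sign. Among values for single genes and pairs, 90 moved beyond their interval or spread and 10 counts of cells were lower by more than this. With E11.5 cells alone, an alternative added after seeing the data, counts of genes that differed between cluster 2 cells with and without Cpa3 changed. Neutrophil genes higher numbered 0, in place of 2, and endothelial genes lower 4, in place of 9. Effector genes higher numbered 13, in place of 12, and Ptgs1 was lower. Receptor genes higher numbered 2, in place of 3, and progenitor genes higher 1, in place of 2. Macrophage genes lower numbered 2, in place of 1. Of 3 megakaryocyte genes examined, 2 were higher and 1 lower. Transcription factors higher stayed at 6, with Meis2 in place of Cebpa. With reads required in 2 or more cells per batch, effector genes higher numbered 7, markers of mast cells or basophils 3, in place of 5, and macrophage genes 1, in place of 2. Transcription factors higher then numbered 5, in place of 6, and receptor genes 2, in place of 3. With a pseudocount of 10 CPM, Hdc in the E10.5 comparison of GFI1+ IAHC with GFI1+ HE (log2 ratio 0.77) and Slc45a3 in GFI1+ over GFI1- IAHC (0.99) were no longer called, nor was Rab44 in the stage comparison of GFI1+ IAHC with batches pooled (0.94). The number of the 5 genes called higher in GFI1+ IAHC over GFI1+ HE at E11.5 was 0 without clusters 6 to 10, 3 with batches pooled and 3 without GL58, in place of 1. In GFI1+ over GFI1- IAHC it was 5 without GL78, in place of 3. In the E11.5 over E10.5 comparison of GFI1+ HE it was 1 with a pseudocount of 10 CPM and 0 without the top cell, in place of 3. Cells with Cpa3 reads numbered 9 without GL78, in place of 27, those with both Cpa3 and Hdc 7, in place of 19, and those with Hdc 27 without GL78 and 31 without GL53, in place of 49. The cause was not tested beyond what each construction removes. With at least 10 reads required, 25 cells had Cpa3, 40 Hdc and 29 Rab44, and after thinning to 100000 counts 26, 44 and 30 had reads. No paired analysis was possible because the comparisons give values with no test and cells carry no shared replicate number.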

Other observations

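Cpa3 was found in 3 of the 85 left-out cells, all E11.5 GFI1+ IAHC of GL53, and all 3 also had reads of Hdc, Slc45a3 and Rab44. A single one of them, with 490577 counts, held 5798 Cpa3 reads (11819 CPM), above the 9096 CPM of the highest kept cell. The other two had 344.8 and 1177 CPM.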
